A study of Mus musculus with 6 samples.

Results

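Acetylation of histone H3 at lysine 27 (H3K27ac) covered 897 promoters in mouse embryonic stem cells (mESCs) whose peaks were poor in GC, out of 5760 autosomal peaks at the promoter of 1 protein-coding gene. The peaks were selected on their own sequence. Each lay on an autosome, was at least 1 kb and under 10 kb wide, overlapped the promoter (±1 kb from the transcription start site, TSS) of exactly 1 protein-coding gene and of no lincRNA, and had a GC content below 48%. They made up 15.6% of the 5760 peaks, and the other 4863 peaks, with a GC content of 48% or above, served as the comparison. The list held 17736 autosomal peaks of these widths and 22973 peaks in all.

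The peaks came from chromatin immunoprecipitation and sequencing (ChIP-seq) of E14 mESCs (E14Tg2A with Rosa26-Cre and Oct4-IRES-Puro), an established mouse line grown in N2B27 medium with LIF and inhibitors of MEK and GSK3 (PD0325901 and CT-99021). Control cells received DMSO, and the other groups received for 120 min either NVP-2 (100 nM), an inhibitor of the elongation kinase CDK9, or actinomycin D (800 nM), which binds DNA and blocks RNA polymerases, with doses as the sample labels give them (other concentrations stand elsewhere in the study's text). Each of the 3 groups had 2 replicates with chromatin of human HEK293T cells as a spike-in. The only values used here are the positions of peaks in control cells, which the authors called on both replicates together, so there is no replicate error, no height and no treated value, and the depth behind a peak is unknown. Of 57 genes on a list of pluripotent cell markers, 46 had a peak at the promoter, against 10381 of all 20722 autosomal coding genes (50.1%), 7 of 19 primitive endoderm, 10 of 43 germline and 2-cell, 4 of 16 fibroblast, 3 of 13 neural and 0 of 17 blood and liver genes.

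Most mammalian promoters that are active in many tissues lie in CpG islands, stretches rich in GC and in unmethylated CpG dinucleotides, whereas many tissue-restricted promoters are poor in CpG and more often hold a TATA box, the element bound by the TATA-binding protein. H3K27ac is written mainly by the acetyltransferases CBP and p300 and marks the nucleosomes beside the nucleosome-free stretch at active promoters and enhancers. A peak therefore spans both the promoter core and the flanking nucleosomes, and its mean GC content depends on both. The authors merged peaks within 2 kb, so a broad peak here can also hold bases between called peaks. The list does not mark such bases, and they enter the widths and GC contents below.

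Promoter sequences of 9 low-GC peaks are shown to let the range of base composition at the TSS be read directly, from a CpG-dense core to a core with no CpG, with Cfl2 from the comparison peaks at the end. Each holds 100 bases before the TSS, the TSS and the 29 bases after it, 5′ to 3′ on the strand of the gene, from the GRCm38 (mm10) genome of RefSeq, and capitals mark CpG dinucleotides and, in Hmgcs1, Taf13, Zfp273 and Krtap5-5, the letters TATAAA:
Akirin2 (chr4:34550837-34550966, plus strand): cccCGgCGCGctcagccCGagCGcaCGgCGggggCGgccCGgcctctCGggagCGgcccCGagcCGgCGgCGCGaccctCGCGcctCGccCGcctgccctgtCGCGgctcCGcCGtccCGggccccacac
Dnajc21 (chr15:10470487-10470616, minus strand): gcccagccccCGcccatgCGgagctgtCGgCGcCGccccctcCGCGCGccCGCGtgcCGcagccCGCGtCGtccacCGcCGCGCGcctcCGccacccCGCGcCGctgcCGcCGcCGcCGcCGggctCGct
Hmgcs1 (chr13:119690364-119690493, plus strand): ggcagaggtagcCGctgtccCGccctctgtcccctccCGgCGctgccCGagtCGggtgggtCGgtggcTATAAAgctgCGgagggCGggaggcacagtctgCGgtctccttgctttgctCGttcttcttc
Taf13 (chr3:108571599-108571728, plus strand): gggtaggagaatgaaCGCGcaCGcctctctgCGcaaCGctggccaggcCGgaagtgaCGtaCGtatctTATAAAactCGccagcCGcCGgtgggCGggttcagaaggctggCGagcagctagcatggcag
Zfp273 (chr13:67813640-67813769, plus strand): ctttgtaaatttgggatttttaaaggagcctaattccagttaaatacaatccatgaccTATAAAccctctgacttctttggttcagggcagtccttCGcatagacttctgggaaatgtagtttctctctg
Krtap5-5 (chr7:142229942-142230071, minus strand): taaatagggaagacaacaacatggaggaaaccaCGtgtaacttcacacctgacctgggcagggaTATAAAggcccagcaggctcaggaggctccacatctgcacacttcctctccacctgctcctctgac
L1td1 (chr4:98726648-98726777, plus strand): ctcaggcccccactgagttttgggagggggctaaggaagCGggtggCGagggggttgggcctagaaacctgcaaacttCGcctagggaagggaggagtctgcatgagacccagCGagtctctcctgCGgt
Dppa4 (chr16:48283635-48283764, plus strand): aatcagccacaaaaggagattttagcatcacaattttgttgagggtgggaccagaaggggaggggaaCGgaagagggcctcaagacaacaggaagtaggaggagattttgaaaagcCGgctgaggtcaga
Lifr (chr15:7090514-7090643, plus strand): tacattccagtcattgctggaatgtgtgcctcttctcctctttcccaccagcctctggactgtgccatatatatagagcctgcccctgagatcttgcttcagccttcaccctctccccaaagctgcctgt
Cfl2 (chr12:54862848-54862977, minus strand): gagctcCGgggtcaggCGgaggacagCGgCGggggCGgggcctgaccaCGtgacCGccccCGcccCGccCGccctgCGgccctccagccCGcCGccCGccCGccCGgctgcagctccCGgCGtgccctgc

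Akirin2 and Dnajc21, the low-GC members with the highest GC content around the TSS together with C1galt1, held 25 and 28 CpG dinucleotides in these 130 bases, more than the 18 of Cfl2. Akirin2 encodes a nuclear protein of innate immune signalling, and Dnajc21 a co-chaperone of ribosome maturation. Their peaks nevertheless averaged 43.2% and 46.7% GC over 9825 and 8968 bp. At the other end stood Lifr, the receptor of leukemia inhibitory factor, with 0 CpG dinucleotides, and the germ-cell and pluripotency gene Dppa4, with 2. TATAAA began at position -32 from the TSS in Hmgcs1 (cholesterol synthesis) and in Taf13 (a subunit of the general factor TFIID), which held 11 and 13 CpG dinucleotides. It began at -42 in Zfp273 and at -36 in Krtap5-5, a keratin-associated protein gene, each with 1 CpG.

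The GC content that defined the low-GC peaks ranged from 38.1% to just under 48%, with a median of 46.2%, against 54.9% in the comparison. These values follow from the rule and are given as a description. The threshold did not fall in a gap. There were 263 members from 47% to below 48% and 282 peaks from 48% to below 49%. The 3 peaks just inside were those of Vps72 (47.979%), Rab8a (47.997%) and Atp5l (47.998%), and those just outside belonged to Rbm5 (48%), Ptgr2 (48.002%) and Rit1 (48.003%).

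The members lowest in GC were those of Kctd4 (38.1%, 1389 bp), Olfr153 (38.3%, 4282 bp), Zfp317 (38.5%, 1054 bp), Lpar6 (39.3%, 8605 bp) and Lix1 (39.5%, 3098 bp). Kctd4 encodes a protein with a potassium channel tetramerisation domain, Lpar6 a receptor for lysophosphatidic acid and Zfp317 a zinc finger protein. Olfr153, at chr2:87532155-87536436, belonged to an olfactory receptor gene, a family silent in most cells other than sensory neurons, and 1 of 1126 such genes had a peak at the promoter window. Its TSS lay outside the peak, which began within its single exon and ran past the end of the gene. The TSS of Lix1 also lay outside its peak. Altogether 29 members had a GC content below the autosomal mean of 41.9%.

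Bases around the TSS of the low-GC peaks were mostly richer in GC than the peak as a whole. Around the TSS (100 bases on each side) the median GC content was 61.7% (95% interval 60.7% to 62.2%), against 67.7% (67.2% to 67.7%) in the comparison. Within 500 bases of the TSS it was 54.3% against 60.8%, and 758 of the 897 members (84.5%, 95% interval 82.0% to 86.7%) were at 48% or above there. The bases of the peak beyond 500 bases had a median of 42.7% against 49.5%, for the 847 low-GC and 4476 comparison peaks with enough of them. These bases entered the rule, so a low-GC peak with a core above 48% had to have outer bases below it, and the values are a description. Intervals are order-statistic intervals for medians and Wilson intervals for shares, cover counting error only, and take peaks as units although neighbouring peaks and gene copies share sequence.

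**Figure D1:**
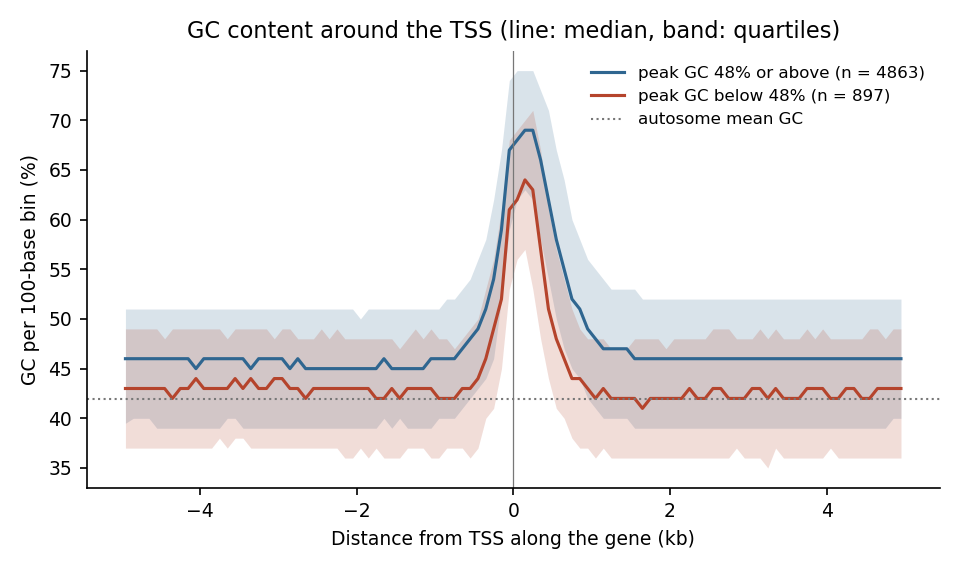
Median GC content (line) and quartiles (band) per 100-base bin against the distance from the TSS along the gene, for 897 low-GC peaks and 4863 comparison peaks. Both rise to a maximum just after the TSS (64% and 69% at 0.15 kb), and by 1.05 kb downstream the medians are 42% and 48%, beside the autosomal mean of 41.9% (dotted).

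The surroundings of the low-GC peaks were also poorer in GC. In the flanks from 10 to 50 kb away, which the rule did not use, the median was 43.1% (42.8% to 43.4%) against 45.5% (45.3% to 45.6%), a difference of -2.31 percentage points (95% interval -2.66 to -2.01). The difference kept its sign in each width class, from -2.12 points at 2 to 3 kb to -4.10 points at 5 to 10 kb. Repeats, read from the soft-masked genome, filled a median of 22.6% of the bases of a low-GC peak against 11.3% of a comparison peak (difference 11.4 points, 10.6 to 12.3). Within width classes that difference was 5.82 to 8.91 points. Repeats filled at least 50% of 10 low-GC peaks and of 1 comparison peak. Repeats were counted in the peak bases, which entered the rule, unlike the flanks, so their shares are a description.

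Low-GC peaks were broad. Their median width was 4196 bp (3920 to 4456) against 1940 bp (1923 to 1956), a difference of 2256 bp (1980 to 2517), and 596 of 897 (66.4%) were at least 3 kb wide, against 25.3% of the comparison. The share of low-GC peaks rose from 6.44% (185 of 2872) at 1 to 2 kb to 10.9% at 2 to 3 kb, 24.2% at 3 to 5 kb and 42.4% (357 of 842) at 5 to 10 kb. Among peaks at least 3 kb wide, 32.6% were low-GC, and among narrower ones 7.66%. Spearman's rank correlation of width with GC content over the 5760 peaks was -0.472, a description over points that come from 1 list. Width and GC content are tied in their construction, because a wider peak takes in more of the flanks shown in the GC profile, and the part of this tie in the difference was not tested. Restricting both sets to peaks whose midpoint lay within 1 kb of the TSS left a difference of 548 bp (286 to 733). With low GC counted within 500 bases of the TSS in place of the whole peak, the difference was 222 bp (-26.9 to 712), an interval that included 0.

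**Figure D2:**
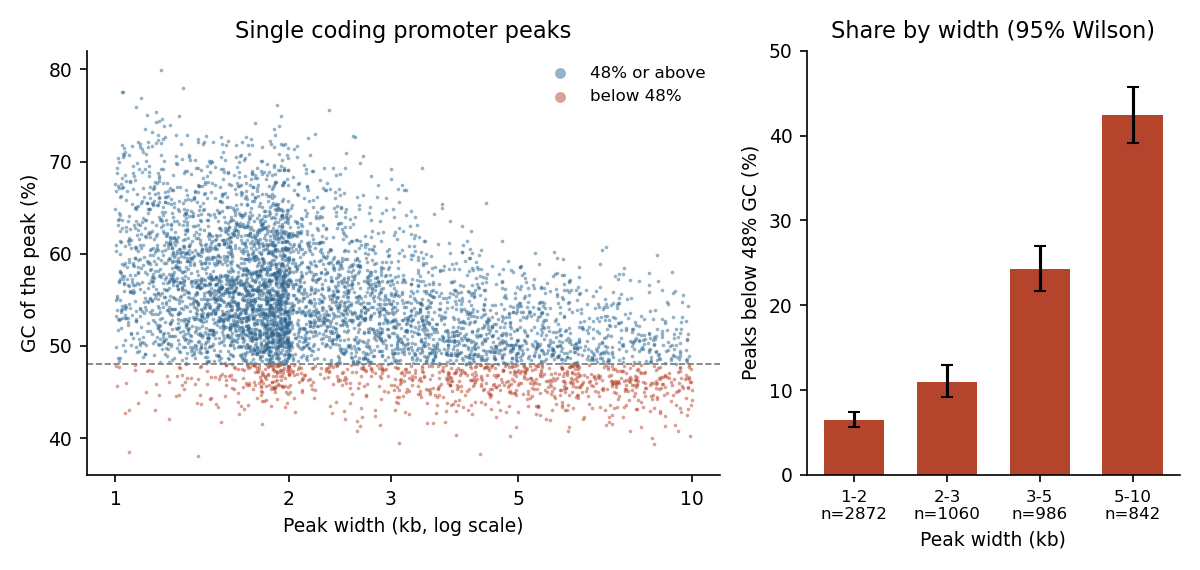
Left, GC content against width (log scale) for each of the 5760 single coding promoter peaks, with the 48% threshold dashed. Right, the share of peaks below 48% GC by width class with 95% Wilson intervals, which climbs from 6.44% to 42.4%.

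Widths piled up just below 2 kb in both sets. There were 40 low-GC peaks from 1900 to below 2000 bp wide and 16 in the next 100 bp, and 413 and 137 comparison peaks in the same ranges. The cause was not tested. The widest low-GC peaks were those of Kat7 (9982 bp), which encodes a histone acetyltransferase, Caprin1 (9981 bp), an RNA-binding protein, and Srsf3 (9963 bp), a splicing factor, just under the upper limit of the rule. Low-GC peaks also stood earlier in the deposited list (median line 4801 against 9224, of 22973). The order of the list is not explained in the sources used here, and line and width had a Spearman correlation of -0.577 over the 5760 peaks. Within the width classes low-GC peaks also stood earlier, with a difference of -2505 lines at 1 to 2 kb, -1837 at 2 to 3 kb, -884 at 3 to 5 kb and -1332 at 5 to 10 kb, with intervals below 0.

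The peaks reached mainly into the gene. The median reach from the TSS was 2275 bp downstream and 936 bp upstream, against 1154 bp and 728 bp in the comparison. The share that reached farther downstream than upstream was 72.6%, against 74.0%, with an interval of the difference from -4.66 to 1.67 percentage points. Both sets thus leaned to the gene side. The TSS lay inside the peak in 852 of the 897 low-GC peaks and in 94.4% of the comparison, a difference of 0.556 points (-1.18 to 1.98). That difference depended on the setting. It was -3.54 points (-8.02 to -0.417) with a GC threshold of 45% and 1.62 (0.304 to 2.80) with 50%. By GC within 500 bases of the TSS it was -17.5 (-23.7 to -12.4), and with any width 7.45 (5.82 to 8.87). Introns made up a median of 56.7% of the bases of a low-GC peak against 44.4%, and exons 6.34% against 13.3%. These shares are taken over the width of the peak and over bases that entered the rule, so they are a description. They were not compared within width classes.

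The genes themselves had a median length of 23757 bp (22331 to 25395) against 26027 bp (24849 to 27223), and 8 against 10 exons in the longest transcript. The difference in length changed sign with peak width and was -6795 bp (-10498 to -4703) at 1 to 2 kb and 5958 bp (1694 to 10133) at 5 to 10 kb. It also turned positive with a GC threshold of 45% (1571 bp), the TSS of any isoform (496 bp) and any width (28 bp). The intervals in these 3 settings included 0. The difference in exons was -4 (-4 to -1.76) at 1 to 2 kb and -2 (-3.41 to -1) at 2 to 3 kb. It was 0 (-2.24 to 1) at 3 to 5 kb and -1 (-2.41 to 0.414) at 5 to 10 kb. Another peak lay in the gene in 30.7% of low-GC genes and 31.8% of the others, a difference of -1.11 points (-4.33 to 2.24). Antisense or bidirectional noncoding starts lay in 7.92% and 8.53% of the peaks, a difference of -0.619 points (-2.41 to 1.47).

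Low-GC peaks fell less often on CpG-rich promoters, by the usual 3 classes of promoters (500-base windows from 700 bases before to 200 after the TSS; high: a window with observed to expected CpG above 0.75 and GC above 55%; low: no window above 0.48; intermediate: the rest). These classes share bases with the rule and are a description. Of the 897 peaks, 428 (47.7%, 44.5% to 51.0%) were at high-CpG promoters, 331 (36.9%) at intermediate and 138 (15.4%, 13.2% to 17.9%) at low-CpG promoters, against 64.4%, 27.8% and 7.75% in the comparison. Of the 10341 autosomal coding promoters without a peak, 68.4% were low-CpG.

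Among the low-GC peaks, width differed by CpG class, which the rule favours in part, since a CpG-rich core falls below 48% only in a peak with enough other bases. Low-GC peaks at high-CpG promoters had a median width of 5153 bp (4855 to 5470) and a median GC content of 67.7% around the TSS. Those at low-CpG promoters had 3089 bp (2502 to 3644) and 51.2%, and those at intermediate ones 3225 bp (2814 to 3644) and 57.2%. The GC content around the TSS is tied to the definition of the classes. Genes of the low-CpG class had a median of 5 exons, against 10 in the high-CpG class. The TSS lay inside the peak in 98.1% of the high, 96.7% of the intermediate and 81.2% (73.8% to 86.8%) of the low-CpG class.

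The contrast in CpG class narrowed with the width of the peak. At 1 to 2 kb, 20.0% of low-GC peaks (37 of 185) and 62.5% of the comparison were at high-CpG promoters, a difference of -42.5 points (-47.9 to -35.9). It was -14.4 points (-21.5 to -7.24) at 3 to 5 kb. At 5 to 10 kb the shares were 62.5% (223 of 357) and 61.6%, a difference of 0.816 points (-5.83 to 7.38). The rule bears on this pattern, because a narrow peak with a GC-rich core can hardly average below 48% while a broad one can through its outer bases, and the shares are a description.

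**Figure D3:**
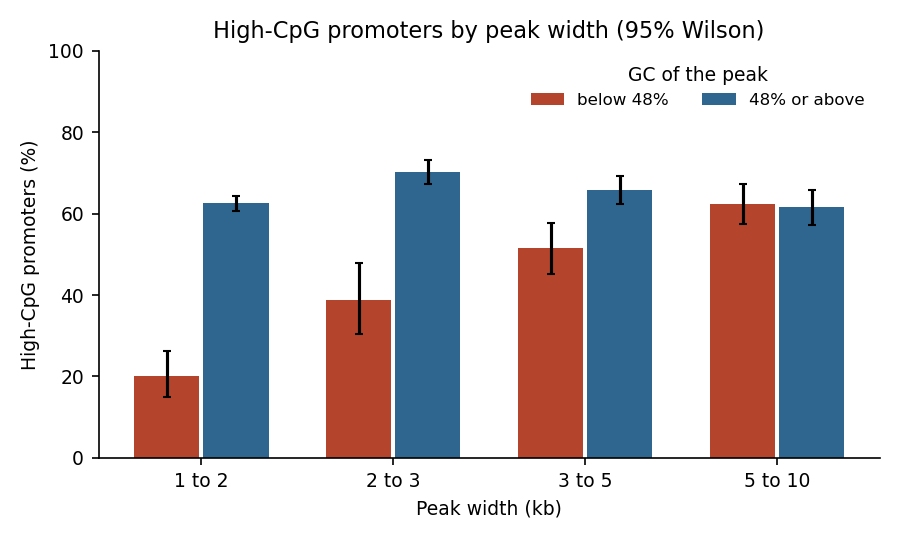
Share of peaks at high-CpG promoters (bars, 95% Wilson intervals) by peak width, for peaks below 48% GC and at 48% or above. Low-GC peaks run from 20.0% at 1 to 2 kb to 62.5% at 5 to 10 kb, where the comparison peaks stand at 61.6%.

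Core promoter letters followed base composition in part. TATAAA on the gene's strand 45 to 20 bases before the TSS was present at 10 low-GC peaks (1.11%, 0.607% to 2.04%), 0.761% of comparison peaks and 2.60% of all 20722 autosomal coding promoters. The difference between both sets of peaks was 0.354 points (-0.229 to 1.30). Beside the 4 genes shown above, Azin1, which encodes an inhibitor of antizyme in polyamine metabolism, had a TATA box at a TSS inside the peak and is among the 5 such members lowest in GC. With TATAAA or TATATA from 60 to 10 bases before the TSS, 17 low-GC peaks (1.90%) and 1.19% of comparison peaks had a match. That difference was 0.703 points (-0.0860 to 1.85). By these letters a TATA box was thus rare in low-GC peaks.

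The TATA variant TATATA was searched in the window of TATAAA, on the gene's strand. The other letters were searched on both strands from 250 bases before to 50 after the TSS, where matches of different letters can overlap. Most of these bases lay inside the peaks and entered the GC rule, so the shares of letters rich or poor in GC are a description. The GC box GGGCGG, bound by SP and KLF factors, was at 52.8% of low-GC promoters, 70.0% of the comparison and 45.8% of all coding promoters. CCAAT, the site of NF-Y, went the other way, at 45.6% against 37.5% (difference 8.05 points, 4.54 to 11.6) and 38.4% of all promoters. The difference for CCAAT was 15.5 points (8.10 to 22.8) at 1 to 2 kb, 12.5 (2.99 to 21.9) at 2 to 3 kb, 1.55 (-5.50 to 8.76) at 3 to 5 kb and 6.36 (-0.305 to 13.01) at 5 to 10 kb.

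The ETS core CCGGAAG, itself rich in GC, was at 23.0% of low-GC promoters, 18.5% of the comparison and 11.5% of all promoters (difference of both sets 4.46 points, 1.60 to 7.51). It was higher in low-GC peaks in all 4 width classes, by 5.14 to 10.6 points, with intervals above 0 at 2 to 3 kb and 5 to 10 kb. The SOX core CATTGTT was at 3.57% against 1.81% (difference 1.76 points, 0.648 to 3.22) and 3.19% of all promoters. By width that difference was 2.07 points (0.0525 to 5.91) at 1 to 2 kb, 6.49 (2.74 to 12.8) at 2 to 3 kb, -0.301 (-2.28 to 2.72) at 3 to 5 kb and 0.945 (-1.12 to 3.39) at 5 to 10 kb. The cyclic AMP response element TGACGTCA was at 4.79% against 3.33% (1.46 points, 0.131 to 3.13) and 2.46%. For the octamer ATGCAAAT, read by POU factors, the shares were 2.12%, 1.25% and 1.59% (0.864 points, 0.0274 to 2.06). Intervals of the difference included 0 for the TATA variant TATATA, the NRF1 half-site GCGCATG, the YY1 letters AAGATGG, the E-box CACGTG, the ESRRB half-site CAAGGTCA, the KLF letters GGGTGTG, the STAT letters TTCCNGGAA and the AP-1 letters TGANTCA. A match is a run of letters and not a bound site.

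Several groups of genes had a share of low-GC peaks whose interval lay above the 15.6% of all peaks, among them genes of the pluripotency list, cytosolic ribosomal proteins and Zfp zinc finger genes. Low-GC peaks were found at 8 of 13 pluripotency genes (61.5%, 35.5% to 82.3%), 19 of 34 ribosomal protein genes (55.9%, 39.5% to 71.1%) and 68 of 186 Zfp genes (36.6%, 30.0% to 43.7%) that had a single coding promoter peak. The same held for serpins, protease inhibitors (3 of 6, 18.8% to 81.2%), for predicted Gm genes (17 of 37, 31.04% to 61.6%) and Rik genes (24 of 90, 18.6% to 36.6%), both without an established name, and narrowly for mitochondrial ribosomal proteins. Among peaks of at least 3 kb the intervals of Gm genes (4 of 12, 13.8% to 60.9%) and serpins (2 of 4, 15.0% to 85.0%) included the 32.6% of all such peaks, and that of Rik genes (14 of 25, 37.1% to 73.3%) lay above it. Under 3 kb, Gm genes had 13 of 25 (33.5% to 70.0%), serpins 1 of 2 (9.45% to 90.5%) and Rik genes 10 of 65 (8.58% to 26.1%), against 7.66%. With neighbours within 500 kb joined, the low-GC peaks formed 12 groups for Gm genes, 23 for Rik genes and 2 for serpins, and all peaks of these families formed 30, 86 and 5. With a threshold of 45%, where 3.91% of all peaks were low-GC, the intervals of the pluripotency list (1.37% to 33.3%) and of cytosolic ribosomal proteins (3.05% to 23.0%) included that share, and that of Zfp genes (6.21% to 14.8%) lay above it. By GC within 500 bases of the TSS, 3.65% of all peaks were low-GC. The interval of cytosolic ribosomal proteins (0.521% to 14.9%) included that share. Those of the pluripotency list (4.33% to 42.2%) and of Zfp genes (8.38% to 17.9%) lay above it. At the threshold of 48%, solute carriers lay at 9.52% (10 of 105, 5.26% to 16.6%), an interval that included the 15.6% of all peaks. Homeobox clusters (0 of 6), Fox factors (0 of 8) and Sox and Pou factors (0 of 5), developmental regulators in CpG-rich surroundings, had no low-GC peak, with intervals that reached past the background.

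**Figure D4:**
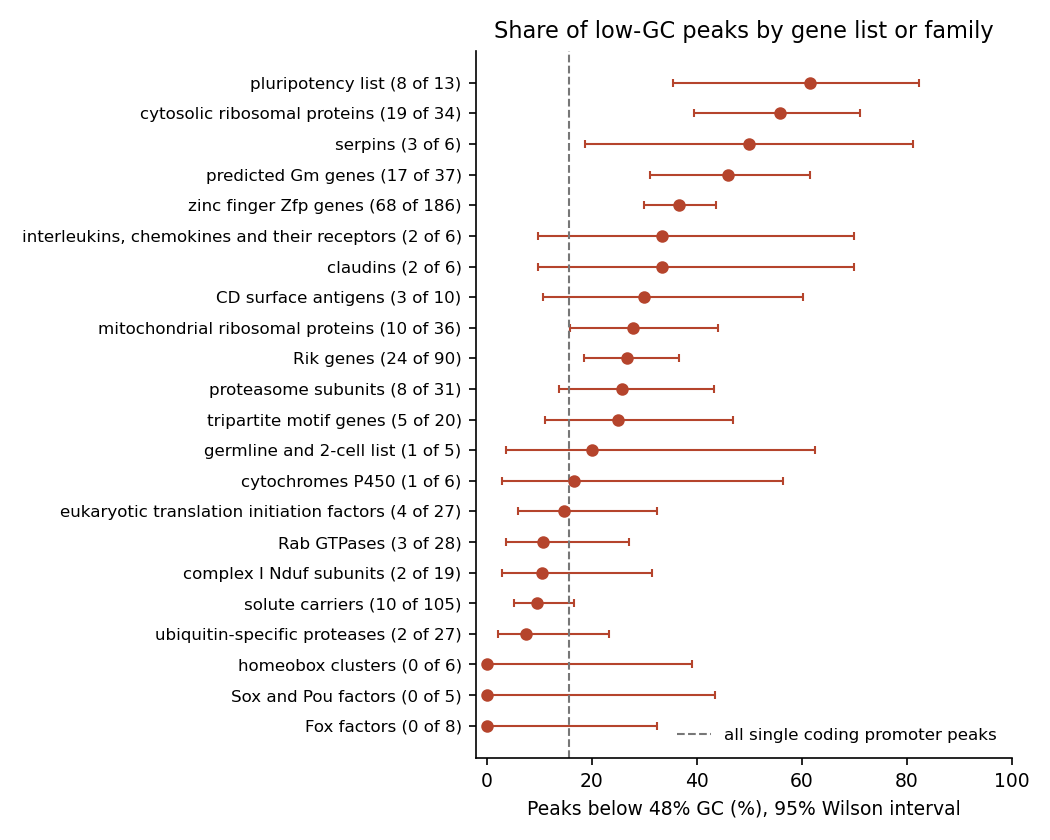
Share of single coding promoter peaks below 48% GC in each gene list or family with at least 5 such peaks (points, 95% Wilson intervals), with the 15.6% over all 5760 peaks dashed. Pluripotency genes, ribosomal proteins and Zfp genes lie right of the line with their intervals, and the families at 0 have intervals that reach past it.

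The low-GC peaks of the Zfp genes were narrower than those of the ribosomal protein genes. Zfp genes encode zinc finger proteins, many of which carry a KRAB domain and silence transposable elements. Their 68 low-GC peaks had a median width of 1987 bp (1884 to 2666) and a median GC content of 53.2% around the TSS. The 19 of ribosomal protein genes had 5934 bp (5140 to 7368) and 58.7%. The peaks of these families at 48% GC or above differed in width in the same way, with a median of 1795 bp (1633 to 1878) for Zfp genes and 4452 bp (3537 to 6282) for ribosomal proteins. At least 3 kb wide were 35.3% of the low-GC Zfp peaks and 14.4% of the others. Of the 68 Zfp peaks, 3 were at high-CpG promoters, 42 at intermediate and 23 at low-CpG ones, and of the 19 ribosomal protein peaks 11, 8 and 0. Among peaks under 3 kb, 44 of 145 Zfp peaks were low-GC (30.3%, 23.4% to 38.3%), against 7.66% of all such peaks, and 0 of 3 of ribosomal proteins. Among peaks of at least 3 kb, 24 of 41 Zfp peaks (58.5%, 43.4% to 72.2%) and 19 of 31 ribosomal protein peaks (61.3%, 43.8% to 76.3%) were low-GC, against 32.6%.

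**Figure D5:**
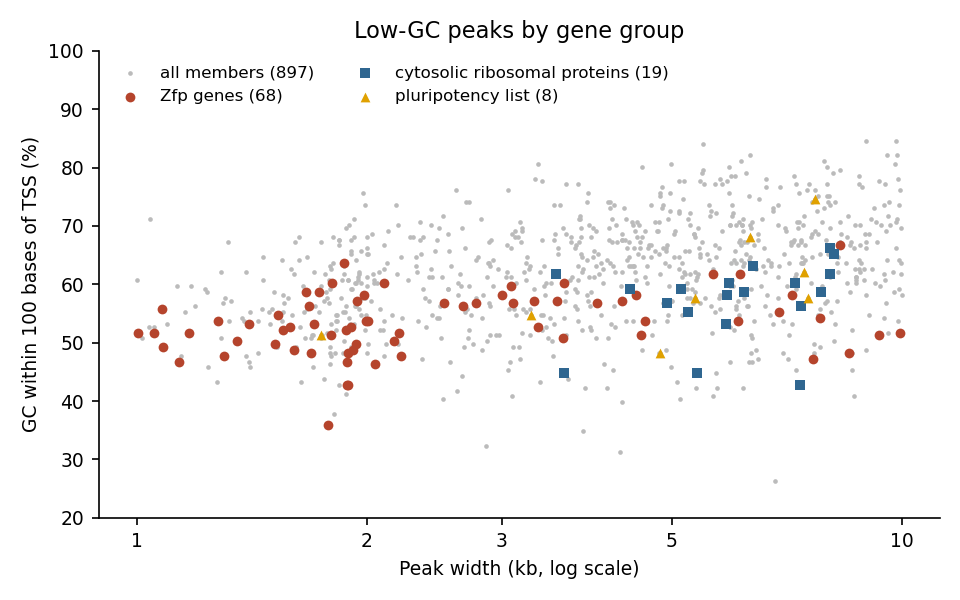
GC content within 100 bases of the TSS against peak width (log scale) for the 897 low-GC peaks (grey), with the 68 of Zfp genes, 19 of cytosolic ribosomal proteins and 8 of the pluripotency list marked. Zfp peaks crowd around 2 kb (median 1987 bp), and the ribosomal protein peaks lie between 3534 and 8159 bp.

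Zfp genes with low-GC peaks lay in GC-poor surroundings and next to each other. The flanks of the 68 peaks had a median GC content of 40.8% (40.3% to 41.3%), below the 43.9% (43.3% to 44.6%) of the other 118 Zfp peaks and the autosomal mean of 41.9%. A GC box was at 14 of the 68 promoters (20.6%, 12.7% to 31.6%) and at 60 of the 118 (50.8%, 41.9% to 59.7%), and CCAAT at 57.4% and 39.0%, in windows whose bases entered the rule that split the Zfp peaks. On chromosome 13, from 67194506 to 67831106 by the TSS, 16 of 17 single coding promoter peaks were low-GC, from Zfp455 to Gm10037. Their GC content ran from 44.9% (Zfp85) to 47.97% (Zfp595), and their widths from 1082 bp (Zfp595) to 3994 bp (Zfp87). All 16 promoters were intermediate or low in CpG.

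On chromosome 17, from 21423227 to 22867134, all 11 such peaks were low-GC, from Zfp54 to Zfp945, with a GC content from 41.8% (CT030661.1) to 47.8% (Zfp946). Runs of 5 of 5 lay on chromosome 4 (Zfp981 to Zfp933) and on chromosome 7 (Zfp141 to Gm2381). With neighbouring Zfp genes within 500 kb of each other counted once in each set of peaks, 27.3% (19.8% to 36.3%) remained low-GC. Genes of such clusters share sequence, and the authors removed reads with low mapping quality. How many reads this took from near-identical copies is not in the list, and peaks at such copies are uncertain. Over all families, 500 of the 897 members (55.7%) lay within 500 kb of another member, and 45.7% of the comparison peaks lay as close to a member (difference 10.0 points, 6.45 to 13.5). Chromosome 13 had the highest share of low-GC peaks (29.5%, 24.01% to 35.6%) and chromosomes 19 (7.77%) and 8 (7.92%) the lowest. A run without Zfp genes lay on chromosome 3 from Psmd4 to Rbm8a, where 10 of 18 peaks were low-GC.

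The peaks of ribosomal protein genes often held the whole gene. These genes encode the proteins of the cytosolic ribosome, and most are short and transcribed in all cells. In 13 of the 19 (68.4%, 46.0% to 84.6%) the annotated gene lay wholly inside the low-GC peak, as it did in 9 of the 15 ribosomal protein genes of the comparison, against 16 of 802 members outside the Zfp, ribosomal and pluripotency groups (2.00%). The peak of Rps12, the lowest in GC, spanned 8039 bp (chr10:23780538-23788576) at 43.2%, around a gene of 2093 bp. Its GC content was 61.7% around the TSS and 41.4% beyond 500 bases. Rps23 (43.4%, 5401 bp), the single-exon gene Rpl10l (44.3%, 5244 bp) and Rpl37a (45.2%, 5900 bp) followed. The flanks of the 19 peaks had a median GC content of 46.0% (42.4% to 46.9%), above the 43.1% of all members.

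Retrocopies of ribosomal protein genes can take reads of their parents, and the share of reads lost to the mapping filter is not in the list. Mitochondrial ribosomal proteins had 10 low-GC peaks of 36 (27.8%, 15.8% to 44.0%) with a median width of 2242 bp, less than that of the cytosolic set, and proteasome subunits 8 of 31 (25.8%, 13.7% to 43.2%). The lower bounds lay just above and below the background of 15.6%. Complex I subunits (2 of 19), translation initiation factors (4 of 27), Rab GTPases (3 of 28) and ubiquitin-specific proteases (2 of 27) had intervals that included it.

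Genes of the pluripotency list with low-GC peaks were Morc1 (43.5%), Dppa4 (45.1%), Lifr (45.7%), Fgfbp1 (46.1%), L1td1 (46.2%), Il6st (46.3%), Tcl1 (46.5%) and Stat3 (47.8%). Lifr and Il6st encode both chains of the LIF receptor and Stat3 the transcription factor that it activates. L1td1 encodes an RNA-binding protein derived from a transposon, and Tcl1 a co-activator of the kinase AKT. Their peaks were 1741 bp (Fgfbp1) to 7692 bp (Il6st) wide, and 7 of the 8 were at least 3 kb. Of the 10 genes of the list with a peak of this width, 7 were low-GC (39.7% to 89.2%), against 32.6% of all.

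Within the list, base composition at the TSS differed widely. GC content around the TSS was 74.6% in Il6st and 68.2% in Stat3 and 48.3% in Dppa4. Il6st was at a high-CpG promoter, Morc1, L1td1 and Stat3 at intermediate and Dppa4, Lifr, Fgfbp1 and Tcl1 at low-CpG ones. Repeats filled 41.2% of the peak of Dppa4 and 40.9% of that of L1td1, but 9.29% of that of Lifr. The 5 genes of the list above 48% were Id1 (53.4%), Id3 (53.6%), Utf1 (54.0%), Lin28a (57.0%) and Dnmt3b (58.0%). The flanks of these 5 ranged from 46.6% to 51.2% GC and those of the 8 from 41.1% to 48.3%.

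The intervals of the other cell type lists, of CD surface antigens, of claudins and of tripartite motif genes included the background of 15.6%. The germline and 2-cell list had 1 of 5 (3.62% to 62.4%, Rpl10l, a testis-expressed ribosomal protein gene also counted above), primitive endoderm 0 of 3, fibroblast 0 of 2 and neural genes 0 of 3. Serpins had 3 of 6 (Serpinb9b, Serpina3i and Serpinb9), all at low-CpG promoters, CD surface antigens 3 of 10 (10.8% to 60.3%, Cd59a, Cd180 and Cd63), and claudins 2 of 6 (9.68% to 70.0%, Cldn14 and Cldn20), with the TSS of both claudins outside the peak. Among peaks of at least 3 kb, solute carriers had 5 of 48 low-GC (10.4%, 4.53% to 22.2%), an interval below the 32.6% of all such peaks. Tripartite motif genes had 5 of 20 (11.2% to 46.9%), of which 4 were at low-CpG promoters.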

How the data were processed

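H3K27ac ChIP-seq libraries were made from control, NVP-2 and ActD-treated mESCs, 2 of each. Per the labels and methods, the authors trimmed reads with cutadapt, aligned them with BWA to the mouse (mm10) and human genomes, removed duplicates (Picard 2.9.1) and poorly mapped reads (SAMtools 1.4), called peaks with LanceOtron, merged peaks within 2 kb, and kept those above height thresholds and near ATAC-seq summits. The deposited list gives chromosome, start and end in base pairs for control cells, with replicates pooled and no other unit. Merging widens peaks, and mapping filters can thin repeats. Treated samples were not analysed here.

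GENCODE release M21 (GRCm38) gave the TSS of the transcript with the longest genomic span for each of 20722 autosomal coding genes. The study names a later release. Gene identities rest on symbols, and families on symbol patterns. Shares had 95% Wilson intervals, differences of shares Newcombe intervals, and medians order-statistic intervals, combined by their squares for differences. No p-value was computed, since a pooled list has no replicates. Functions were tested on simulated peaks. Python 3.11.15, numpy 2.4.6, scipy 1.17.1 and matplotlib 3.10.9 were used. The members, lists and families were chosen with earlier results of these data known.

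Genes named were drawn from the 5 members lowest in GC, the 3 on each side of 48%, the 3 widest, the 5 earliest in the list, all members on the gene lists, up to 4 per family, 5 with TATAAA lowest in GC and the 3 highest in GC at the TSS. Ends of clusters and genes that mark a range were chosen after their values were seen. Alternatives were other GC thresholds, GC near the TSS, window sizes, isoforms, widths, TATA letters, CpG thresholds, TSS inside the peak and lincRNA windows kept. Width classes and clusters counted once were added after the data were seen.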

Additional observations from a re-analysis of the deposited data

How the results depend on the processing

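Of 120 alternative values over 12 results, 71 lay within the 95% interval of the reported value, 45 lay outside it, and 4 turned the sign of a difference whose interval had excluded 0. The 71 include a value fixed in advance, the difference of 0 in TSS inside the peak where the TSS had to lie inside. Differences whose interval included 0 (TSS inside the peak, other peaks in the gene) also took the other sign in some settings. The share of low-GC peaks depended on the threshold, at 3.91% with 45% and 26.7% with 50%, and was 3.65% by GC within 500 bases of the TSS, 16.6% with the TSS of any isoform and 16.8% with any width. In percentage points, the difference in TSS inside the peak was -3.54 (45%), -17.5 (GC near the TSS) and 7.45 (any width), and that in high-CpG promoters -26.9 (45%), -64.2 (GC near the TSS), -13.0 (any width), -22.1 (other class thresholds) and, by rising width class, -42.5, -31.4 and, at 5 to 10 kb, 0.816. The difference in width was 2623 bp (45%), 1866 bp (50%), 222 bp (GC near the TSS, -26.9 to 712), 3625 bp (any width) and 548 bp (midpoint near the TSS). The flanks differed by -3.55 points (45%), -1.76 (50%), -2.73 (GC near the TSS) and, at 1 to 2, 3 to 5 and 5 to 10 kb, -2.93, -3.35 and -4.10, and repeats by 5.65 (GC near the TSS), 14.0 (any width) and, by rising width class, 5.82, 8.91, 7.56 and 7.67.

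The difference in gene length was -4276 bp with 50% and turned to 1571 bp (45%), 496 bp (any isoform) and 28 bp (any width). That in other peaks in the gene was 3.77 points with any isoform. The low-GC share of pluripotency genes was 7.69% (45%), 15.4% (GC near the TSS) and 33.3% (under 3 kb, 6.15% to 79.2%). That of Zfp genes was 9.68% (45%), 51.1% (50%), 12.4% (GC near the TSS), 58.5% (at least 3 kb) and 27.3% (neighbours counted once), and that of ribosomal proteins 8.82% (45%), 76.5% (50%), 2.94% (GC near the TSS) and 0% (under 3 kb). Against the shares over all peaks in the same settings, the intervals of pluripotency genes no longer lay above at 45% and under 3 kb (7.66%), and those of ribosomal proteins at 45%, near the TSS and under 3 kb. Causes were not tested. No paired analysis was possible because the list pools both control replicates. Read depth and replicate spread are unknown, so no interval covers them, and peaks near the threshold could fall on either side with other peak edges.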
